A study of Mus musculus with 11 samples.

Results

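The 10 glycolytic enzymes Hk2, Gpi1, Pfkl, Pfkp, Aldoa, Tpi1, Gapdh, Pgk1, Eno1 and Ldha were followed in forebrain RNA of mouse embryos lacking Kif20a. They were taken by gene symbol, 10 of the 20475 genes listed in each table, and were selected on their germline knockout against wild-type values, which are therefore given as a description and were not tested. Kif20a, or MKLP2, is a mitotic kinesin that acts in cytokinesis. Poly(A) RNA was sequenced in 2 comparisons at E12.5, named forebrain in the labels and cortex in the study. The germline comparison held 3 wild-type and 3 homozygous knockout-first libraries, in which Kif20a is interrupted by a cassette of LacZ and neomycin resistance. The line came from 1 embryonic stem cell clone, crossed to C57BL/6J. The inducible comparison held 2 libraries labelled wild type and 3 of Nestin-CreERT2; Kif20a fl/fl embryos, from litters that all received tamoxifen at E9.5 and E10.5. In other experiments of the study the control littermates were Kif20a fl/fl without Cre, and the labels do not say whether the wild-type libraries here carried those alleles. Nestin drives CreERT2 in neural stem and progenitor cells, whose progeny inherit the deletion, so cells of other lineages should keep Kif20a.

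Glycolysis splits glucose into pyruvate in the cytosol and yields ATP without oxygen. Lactate dehydrogenase then reduces pyruvate to lactate, which regenerates the NAD+ that the pathway consumes. Many genes of the pathway are known targets of the hypoxia-inducible factors (HIF), transcription factors that are stabilized at low oxygen and bind DNA at a short core motif. Proliferating cells of the early neural tube are known to rely on glycolysis, before blood vessels have grown through the tissue.

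Promoters are shown because many genes of the pathway are known HIF targets and the HIF core motif is known. Hk2 had the largest and Gapdh the smallest germline difference. The RefSeq promoter table of build GRCm38.p6 matched 10 of 10 members, with 15 windows of the 250 bases before a transcript's start. The motif was searched as ACGTG or GCGTG on both strands, where CACGTG holds ACGTG on both strands and overlapping matches were merged into 1 site. The windows of Hk2 (chr6:82774455-82774704, minus strand), Gapdh (chr6:125165774-125166023, minus strand), Pgk1 (chrX:106186850-106187099, plus strand), Ldha (chr7:46845554-46845803, plus strand, the first of 2) and Tpi1 (chr6:124814159-124814408, minus strand) read as follows, 5′ to 3′, with matches in capitals.
Hk2: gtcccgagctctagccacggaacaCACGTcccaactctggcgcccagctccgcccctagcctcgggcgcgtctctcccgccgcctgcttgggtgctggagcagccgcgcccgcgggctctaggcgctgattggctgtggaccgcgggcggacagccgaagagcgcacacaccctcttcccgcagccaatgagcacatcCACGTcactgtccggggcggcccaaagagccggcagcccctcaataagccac
Gapdh: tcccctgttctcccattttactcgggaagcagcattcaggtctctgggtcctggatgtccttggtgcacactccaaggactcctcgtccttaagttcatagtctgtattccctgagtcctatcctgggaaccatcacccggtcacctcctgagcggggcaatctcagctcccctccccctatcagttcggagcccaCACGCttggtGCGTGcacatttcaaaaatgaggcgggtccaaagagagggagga
Pgk1: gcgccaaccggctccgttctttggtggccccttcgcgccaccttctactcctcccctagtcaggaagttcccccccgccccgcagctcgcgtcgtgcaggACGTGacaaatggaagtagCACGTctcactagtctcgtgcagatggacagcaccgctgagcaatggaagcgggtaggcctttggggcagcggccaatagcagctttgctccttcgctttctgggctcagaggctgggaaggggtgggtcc
Ldha: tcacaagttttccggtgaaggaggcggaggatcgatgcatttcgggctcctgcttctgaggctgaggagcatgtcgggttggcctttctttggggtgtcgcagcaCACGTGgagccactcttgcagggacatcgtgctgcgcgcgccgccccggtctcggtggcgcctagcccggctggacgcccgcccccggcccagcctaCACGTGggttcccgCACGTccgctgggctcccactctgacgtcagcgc
Tpi1: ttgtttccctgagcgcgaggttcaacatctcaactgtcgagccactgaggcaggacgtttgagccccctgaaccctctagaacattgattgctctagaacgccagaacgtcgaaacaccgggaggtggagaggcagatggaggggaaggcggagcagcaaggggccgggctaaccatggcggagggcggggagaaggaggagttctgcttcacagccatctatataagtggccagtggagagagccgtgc
Hk2, Gapdh and Pgk1 each held 2 sites and this Ldha window held 3, whereas Tpi1 held none. Across all members, 8 of 10 genes held at least 1 site in a window, and Gpi1 was the other member without one. By window it was 12 of 15, which counts some sites again, since windows 2 and 3 of Eno1 overlap and hold the same sites, as do windows 2 and 3 of Aldoa. Of 32851 windows of the same length in the table, 38.6% held at least 1 site. At least 2 sites were held by 13.5% of those windows and by 46.7% of the 15 member windows, the overlapping Eno1 windows included. Bases just after the start were found in a GENCODE M1 coding transcript of the gene for every window except both of Ldha and that of Gpi1, so the starts behind those 3 windows were not matched to that annotation. Windows were not matched for base composition, and C and G made up 50.4% to 71.2% of the member windows. A match is a run of letters and not a bound site.

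The deposited values are normalized counts, equalized between the libraries of a table but not divided by gene length. Per library they summed to between 13048716 and 15551274 (germline) and between 24118520 and 24497307 (inducible). Such totals no longer show sequencing depth. Kif20a was 2477 ± 194 (SD, n = 3) normalized counts in germline wild-type embryos, falling to 429 ± 67.1 (n = 3) in the knockouts, a log2 fold change of -2.54 (SE 0.15, adjusted p = 0.00845, limma). The study placed the residual germline reads in the first exons and described the full-length transcript as disrupted by the cassette. In the inducible knockouts Kif20a fell from 4802 ± 59.4 (n = 2) to 2964 ± 143 (n = 3), a log2 fold change of -0.70 (SE 0.057, adjusted p = 0.0107, limma). The study proposes that differing Cre levels among cortical cells could explain the signal left there, which was not tested here. On the first principal component of the germline table, which carried 58.0% of the variance, knockout 2 lay at 91.2 and the other 5 libraries between -38.4 and 3.84. Nothing in the labels says that embryos were pooled or kept single, so the errors measure the spread between libraries. In RNA from whole tissue, more cells of a type and more RNA per cell cannot be told apart.

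All 10 enzymes were higher on average in the germline knockouts, by between 0.49 (Gapdh) and 2.01 (Hk2) on the log2 scale, with a median of 1.04 against -0.04 over all 13938 genes tested. The mean was carried by 2 of the 3 knockout libraries. Knockouts 1 and 2 lay above all 3 wild-type libraries for 10 of 10 enzymes, with a median level of 2.47 and 3.00 times the wild-type mean. Knockout 3 had a median of 1.14 times that mean, above the highest wild-type library for 6 enzymes and inside the wild-type range for 4. The order knockout 2, knockout 1, knockout 3 held for 9 enzymes. Together the enzymes made up 0.303% to 0.310% of all normalized counts in the wild-type libraries, against 0.684%, 0.782% and 0.367% in knockouts 1, 2 and 3.

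**Figure D1:**
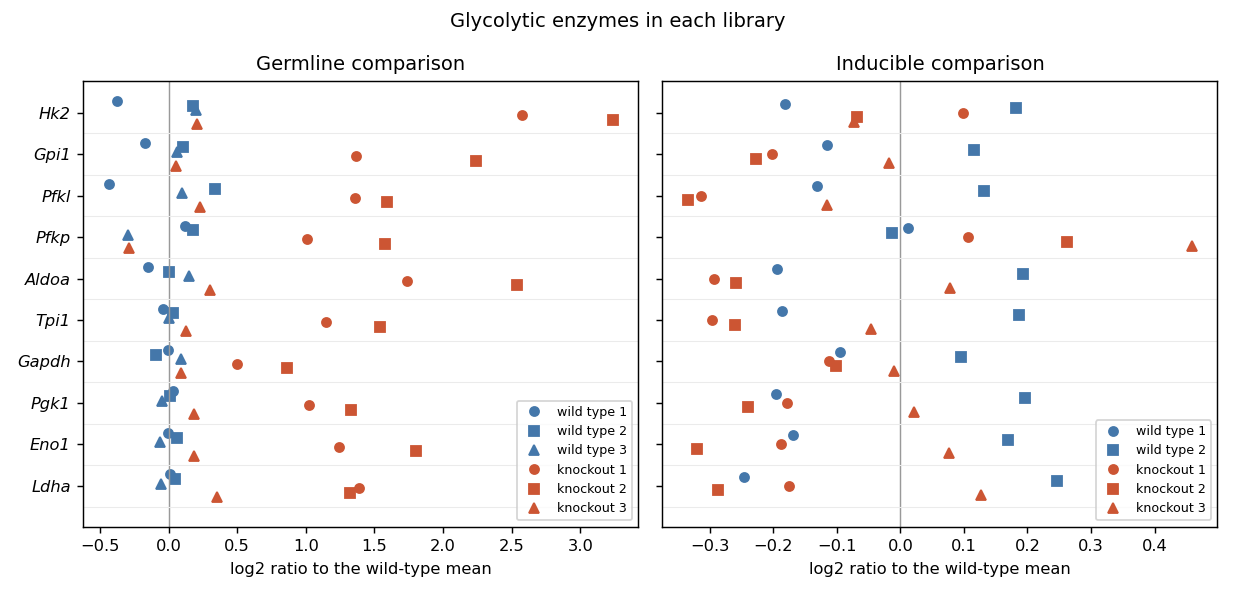
Log2 ratio of each library to the mean of the wild-type libraries of its own comparison (x axis, log2 of normalized count + 1) for each enzyme (y axis), with circles, squares and triangles for replicates 1, 2 and 3, and separate x scales for the panels. Germline knockouts 1 and 2 stand right of all wild-type libraries for 10 of 10 enzymes, and the inducible groups overlap for 9 of 10.

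The first steps trap and rearrange glucose. Gene positions are those of GENCODE M1 on mm9, the build of the counts, and not of the build of the promoter windows. Hk2, a hexokinase that phosphorylates glucose and can bind mitochondria (chr6:82675019-82724448, minus strand, 18 exons), was at 478, 702 and 715 normalized counts in wild types 1 to 3 against 3713, 5874 and 717 in knockouts 1 to 3. The log2 fold change was 2.01 (SE 0.71), and the single knockouts stood at 5.88, 9.30 and 1.14 times the wild-type mean. Knockout 3 therefore exceeded the highest wild-type library by under 3 counts. Gpi1, which converts glucose 6-phosphate to fructose 6-phosphate (chr7:34987141-35015308, minus strand), was at 1730, 2101 and 2037 in the wild type against 5023, 9203 and 2027 in the knockouts, a log2 fold change of 1.22 (SE 0.49). Knockout 3 lay within the wild-type range.

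Phosphofructokinase commits the sugar to the pathway, and liver-type Pfkl (chr10:77449692-77472828, minus strand, 22 exons) and platelet-type Pfkp (chr13:6579014-6648023, minus strand, 22 exons) encode 2 of its isozymes. Pfkl was at 1059, 1813 and 1535 normalized counts in the wild type against 3686, 4317 and 1678 in the knockouts (log2 fold change 1.06, SE 0.37). Pfkp was at 406, 425 and 305 in the wild type against 754, 1120 and 306 in the knockouts (log2 fold change 0.77, SE 0.45). For both genes knockouts 1 and 2 were high and knockout 3 lay among the wild-type libraries. Aldoa, the aldolase that cleaves fructose 1,6-bisphosphate (chr7:133938748-133944265, minus strand), was at 2174, 2427 and 2673 in the wild type against 8063, 14060 and 2985 in the knockouts (log2 fold change 1.53, SE 0.51). After Hk2 this was the largest difference, and all 3 knockouts exceeded the wild type. Tpi1, which interconverts the triose phosphates (chr6:124760604-124764314, minus strand), was at 3783, 3972 and 3892 in the wild type against 8576, 11299 and 4240 in the knockouts (log2 fold change 0.94, SE 0.33).

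The later steps yield NADH and ATP. Gapdh, the glyceraldehyde phosphate dehydrogenase often used as a reference gene (chr6:125111871-125116485, minus strand), was at 13637, 12811 and 14563 normalized counts in the wild type against 19305, 24875 and 14561 in the knockouts. Its log2 fold change of 0.49 (SE 0.21) was the smallest of the 10, with knockout 3 inside the wild-type range and the other knockouts at 1.41 and 1.82 times the wild-type mean. Pgk1, which forms ATP from 1,3-bisphosphoglycerate and is X-linked (chrX:103382439-103399038, plus strand), was at 5786, 5700 and 5454 in the wild type against 11461, 14180 and 6432 in the knockouts (log2 fold change 0.85, SE 0.28). Eno1, the enolase that forms phosphoenolpyruvate (chr4:149610830-149622988, plus strand), was at 5934, 6202 and 5683 in the wild type against 14072, 20759 and 6734 in the knockouts (log2 fold change 1.08, SE 0.37). For Pgk1 and Eno1 all 3 knockouts lay above the wild-type range. Ldha, the lactate dehydrogenase subunit favouring lactate formation (chr7:54096845-54110997, plus strand), was at 6401, 6591 and 6120 in the wild type against 16659, 15954 and 8146 in the knockouts (log2 fold change 1.02, SE 0.27). It was the only member with knockout 1 highest, and the one in which knockout 3 stood farthest above the wild-type mean, at 1.28 times.

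At the thresholds of the study (1.5-fold, unadjusted P of 0.05 from limma), 8 of 10 enzymes were higher and 0 lower in the germline knockouts, where 2.07% of all genes tested were higher and 0.667% lower. Pfkp missed the P threshold, and Gapdh missed both. Groups did not overlap for 6 enzymes, against 5.9% of all genes with every knockout library above every wild-type library. Since this contrast chose the members, nothing is read from these counts. Among the enzymes that passed, Pgk1 had the smallest fold (log2 0.85), and Gpi1 (log2 1.22, SE 0.49) lay closest to the P threshold. Among those that missed, Gapdh (log2 0.49, SE 0.21) lay closer to the P threshold than Pfkp (log2 0.77, SE 0.45). Leaving out single libraries moved the count to 2, 3 and 5 without wild type 1, 2 and 3, and to 1, 7 and 10 without knockout 1, 2 and 3. The median log2 fold change was 0.71 without knockout 2 and 1.42 without knockout 3.

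Levels between enzymes were compared per kilobase of the longest coding transcript of GENCODE M1, whose lengths may differ from the gene models behind the counts. Gapdh had the highest level in the germline wild type, at 9627 ± 617 (SD, n = 3) normalized counts per kilobase, followed by Ldha at 3607 ± 134. Pgk1 at 3094 ± 94.6 and Eno1 at 2930 ± 128 overlapped between libraries. Tpi1, Aldoa, Gpi1 and Pfkl came next in that order without overlap, at 2416 ± 59.0, 1565 ± 161, 960 ± 97.3 and 394 ± 102. Hk2 at 115 ± 24.2 and Pfkp at 91.3 ± 15.6 were lowest and overlapped. The inducible wild-type libraries also had Gapdh highest and Gpi1, Pfkl, Hk2 and Pfkp lowest in the same order, while among the 5 enzymes between (Eno1, Ldha, Pgk1, Tpi1 and Aldoa) each overlapped the next.

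In the inducible knockouts, whose values did not choose the members, none of the 10 enzymes passed the thresholds (0 higher, 0 lower), where 0.802% of all 14081 genes tested were higher and 0.49% lower. Of these enzymes 2 reached an unadjusted P of 0.05, Pfkl below and Pfkp above its wild type, and the adjusted p ranged from 0.825 to 0.990 (limma). The median log2 fold change was -0.14, against -0.002 over all genes tested, with 9 of 10 enzymes below 0. This value rested on the wild-type libraries, since wild type 2 exceeded wild type 1 for 9 of 10 enzymes. The median was -0.32 without wild type 1 and 0.030 without wild type 2.

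Hk2 was at 1852 and 2384 normalized counts in inducible wild-type embryos against 2250, 2003 and 1997 in the knockouts. All 3 knockouts lay between the wild-type libraries, and the log2 fold change was -0.01 (SE 0.11, 95% interval -0.27 to 0.24, adjusted p = 0.990, limma). Aldoa was at 6924 and 9057 in the wild type against 6459, 6619 and 8358 in the knockouts (log2 fold change -0.16, SE 0.14, 95% interval -0.49 to 0.18). Ldha was at 12737 and 17919 in the wild type against 13376, 12385 and 16504 in the knockouts (log2 fold change -0.11, SE 0.16, 95% interval -0.49 to 0.27). In both genes knockout 3 lay between the wild-type libraries, and so did knockout 1 for Ldha.

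Pfkl was at 4187 and 5025 normalized counts in inducible wild-type embryos against 3690, 3636 and 4235 in the knockouts, a log2 fold change of -0.25 (SE 0.097, unadjusted P = 0.0326, adjusted p = 0.825, limma). Knockouts 1 and 2 lay under both wild-type libraries and knockout 3 between them. Pfkp was at 442 and 435 in the wild type against 472, 526 and 603 in the knockouts, a log2 fold change of 0.28 (SE 0.11, unadjusted P = 0.0418, adjusted p = 0.825, limma). It was the only member whose inducible groups did not overlap, with every knockout above the wild type, as 10.4% of all genes tested also were. No member had every knockout under the wild type, where 12.2% of all genes did. The other 5 enzymes had log2 fold changes of -0.15 (Gpi1), -0.20 (Tpi1), -0.07 (Gapdh), -0.13 (Pgk1) and -0.14 (Eno1). As a fold, the 95% interval reached up to 1.45 for Pfkp and no higher than 1.21 for the other 9, and down to 0.710 for Ldha, the lowest bound.

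**Figure D2:**
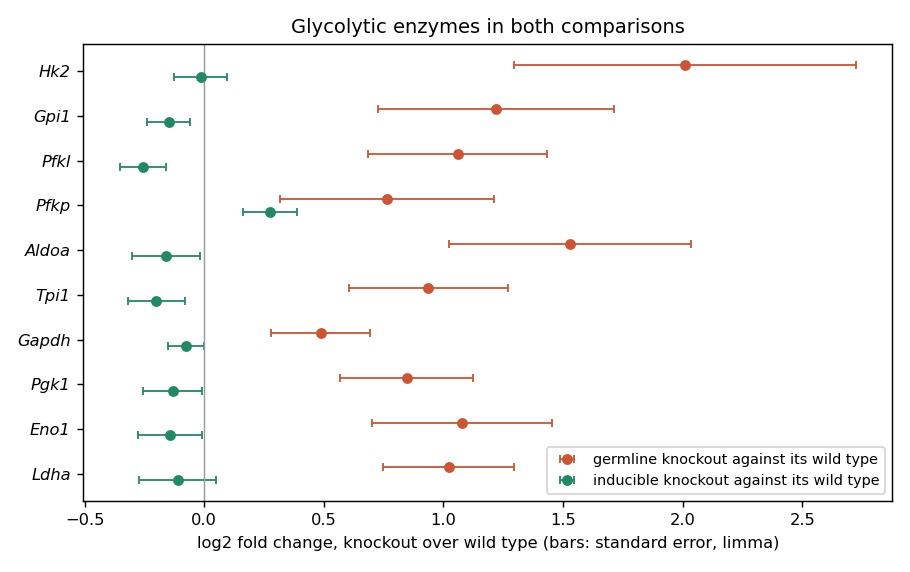
Log2 fold change of knockout over wild type (x axis, limma) for each enzyme (y axis), with bars of 1 standard error, from 3 and 3 germline libraries and from 2 wild-type and 3 inducible knockout libraries. Germline values run from 0.49 to 2.01 and are shown as a description, and inducible values run from -0.25 to 0.28.

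The comparisons were normalized apart, so the difference between the germline and the inducible fold changes was not tested. They also differ in allele, in how much Kif20a RNA remained and in timing. Among the 6 germline libraries the pairwise correlation between members was 0.874 to 0.998 with a median of 0.967 over 45 pairs. Among the 5 inducible libraries it was -0.34 to 0.990 with a median of 0.919, and Pfkl with Pfkp was the lowest pair in both. The libraries of a table share one normalization, the points within a table include both genotypes, and the germline values chose the members.

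Isozymes of a step were set beside the members as shares of the summed level per kilobase. Hk2 made up 46.7%, 43.3% and 47.8% of the hexokinases in the germline wild-type libraries and 73.0%, 73.0% and 52.0% in knockouts 1 to 3. Ldha made up 69.9%, 72.4% and 70.2% of lactate dehydrogenase in the wild type against 89.0%, 83.4% and 77.9% in the knockouts. Pfkl made up 42.6%, 52.3% and 54.0% of phosphofructokinase in the wild type against 67.0%, 57.8% and 57.1% in the knockouts. For these 3 genes every knockout share exceeded every wild-type share. Since the germline values chose the members, nothing is read from this. In knockout 3 Pfkl itself lay within the wild-type range, while Pfkm was at 762 normalized counts against 799 to 979 in the wild type. Eno1 stayed at 96.6% to 98.2% of enolase in all 6 libraries, and the Aldoa and Pfkp shares overlapped between groups. In the inducible comparison the shares of Hk2 (45.5% and 54.3% in wild type, 48.2% to 52.7% in knockouts) and of Ldha (74.2% and 80.2%, against 74.4% to 81.2%) overlapped. There the Pfkl share of the wild-type libraries, 56.9% and 60.5%, did not overlap that of the knockouts, 53.8% to 56.3%. Nor did the Pfkp share, 5.41% and 4.71% against 6.31% to 7.21%. The inducible Aldoa and Eno1 shares overlapped. Pfkl and Pfkp are shares of the same sum, so their separations are not independent. In level, 10.4% of all genes tested had every inducible knockout above the wild type and 12.2% had every one under it. How often shares separate was not tested, so nothing is read from these separations.

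**Figure D3:**
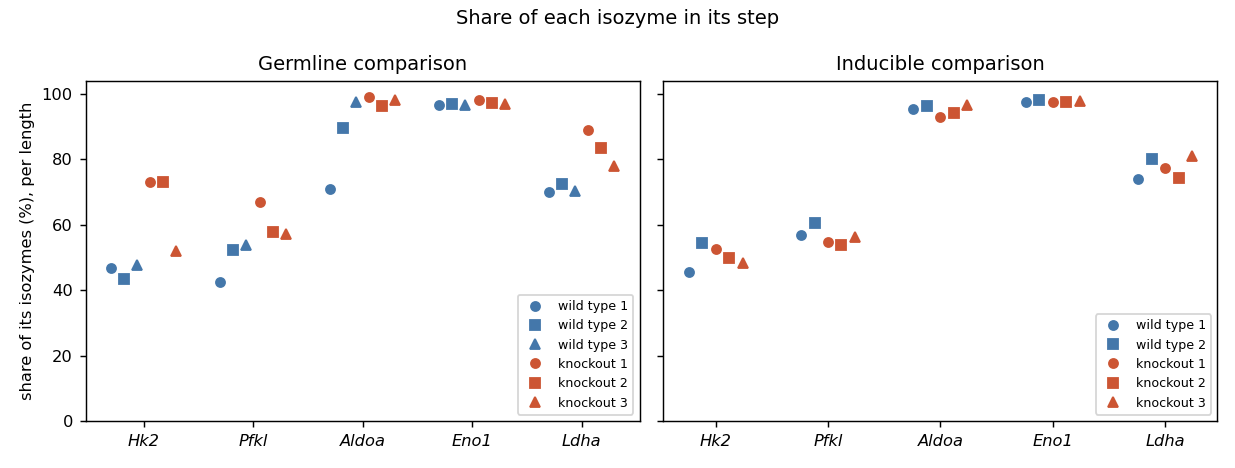
Share of each enzyme in the summed level of the isozymes of its step (y axis, percent, normalized counts per kilobase) in each library, with circles, squares and triangles for replicates 1, 2 and 3. For Hk2, Pfkl and Ldha, members chosen on germline values, the germline knockouts stand above the wild type. In the inducible panel Hk2 and Ldha overlap while the Pfkl shares of the knockouts lie lower.

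The other glycolysis genes were a list of 27 isozymes, remaining enzymes and regulators, of which 20 passed the filter on low values in the germline table and 21 in the inducible table. In the germline knockouts 4 were higher and 1 lower at the same thresholds, with a median log2 fold change of 0.11, and none passed the adjustment (lowest adjusted p = 0.779, limma, with 6 genes past the unadjusted P threshold). Pfkfb3, which makes the activator of phosphofructokinase fructose 2,6-bisphosphate, was at 568, 567 and 543 normalized counts in the wild type against 2690, 6579 and 548 in the knockouts (log2 fold change 1.93, SE 0.80). Pgam1, the phosphoglycerate mutase between Pgk1 and Eno1, was at 3979, 4685 and 4423 in the wild type against 9237, 12027 and 4680 in the knockouts (log2 fold change 0.89, SE 0.33). Both had knockouts 1 and 2 high and knockout 3 within the wild-type range. Pyruvate kinase Pkm rose by 0.60 (SE 0.25) and the muscle enolase Eno3 by 0.59 (SE 0.23) on the log2 scale, and 9630033F20Rik (Tigar), a fructose-2,6-bisphosphatase, fell by 0.64 (SE 0.19). The count of 4 higher genes was 0 without wild type 1, 2 or 3, 1 without knockout 1 or 2, and 6 without knockout 3. The lower count of 1 was 0 without wild type 2 or knockout 1 and 2 without knockout 2 or 3.

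The isozymes Hk1, Pfkm, Eno2, Ldhb and Aldoc did not pass the thresholds in the germline knockouts. Hk1, the main hexokinase of brain, had a log2 fold change of 0.79 (SE 0.45), Pfkm 0.26 (SE 0.29), the neuronal enolase Eno2 0.69 (SE 0.58) and Ldhb -0.08 (SE 0.18). Aldoc, the aldolase of radial glia and astrocytes, was at 1589, 502 and 111 normalized counts in the wild type against 118, 948 and 98.5 in the knockouts (log2 fold change -0.998, SE 1.15). Its wild-type libraries thus spanned nearly the whole range, whereas those of Aldoa did not. In the inducible comparison 0 of the 21 genes were higher and 0 lower, with 2 past the unadjusted P threshold, 9630033F20Rik at a log2 fold change of 0.21 (SE 0.075) and Ldhb at -0.15 (SE 0.062). The lower count was 2 without inducible knockout 3.

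Pathways that feed or drain glycolysis were set beside it in lists. In the germline knockouts 0 of 9 pentose phosphate genes and 0 of 16 citric acid cycle genes passed the thresholds in either direction, with median log2 fold changes of -0.09 and -0.13. Of 15 genes of pyruvate entry 1 was higher, Pdk1, the kinase that switches off pyruvate dehydrogenase, at 817, 804 and 828 normalized counts in the wild type against 4461, 5162 and 972 in the knockouts (log2 fold change 1.79, SE 0.59). Of 12 glycogen genes 2 were higher, the glycogen synthase Gys1 (log2 fold change 1.15, SE 0.43) and the phosphoglucomutase Pgm2 (0.98, SE 0.41). Another 23 known HIF targets were listed with earlier results of these data known. Of these 12 were higher and 0 lower, with a median of 1.57, where 2.07% of all genes tested were higher and 0.667% lower. Since results of these data were known when the list was made, nothing is read from that count or median. The largest were Adm, which encodes the peptide adrenomedullin (3.99, SE 1.24), P4ha2, a collagen prolyl hydroxylase subunit (3.15, SE 0.98), and Slc16a3, a lactate exporter (2.60, SE 0.69). None of these passed the adjustment (adjusted p = 0.779, limma). Adm was at 11.4, 3.23 and 3.31 normalized counts in wild types 1 to 3 against 302, 245 and 11.1 in knockouts 1 to 3. Its mean passed the filter on low values through knockouts 1 and 2, and knockout 3 lay within the wild-type range. With so few wild-type counts, the size of its fold depends on the 1 added to each count before the log.

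By library, the listed HIF targets had medians on the log2 scale of 2.26, 2.54 and 0.03 above the wild-type mean in knockouts 1, 2 and 3. All 5 lists together gave 15 higher genes and 0 lower. Without single libraries they gave 3, 6 and 9 higher without wild type 1, 2 and 3, and 2, 12 and 24 without knockout 1, 2 and 3, with 1 lower without wild type 3 or knockout 2 and 2 without knockout 3. In the inducible comparison 1 gene of these lists was higher and 0 lower. It was Ndrg1, a stress-responsive gene, at 31.5 and 26.7 normalized counts in the wild type against 46.6, 54.5 and 60.3 in the knockouts (log2 fold change 0.86, SE 0.22, adjusted p = 0.739, limma). The count was 2 without inducible wild type 1. The inducible median of the HIF targets was -0.07, and 5 of 22 tested were past the unadjusted P threshold, none past the adjustment. Besides Ndrg1 these were Ddit4 (log2 fold change -0.23, SE 0.069), the glucose transporter Slc2a1 (-0.24, SE 0.080), the prolyl hydroxylase Egln3 (-0.27, SE 0.10) and the histone demethylase Kdm3a (-0.13, SE 0.049), named here after their values were seen. All 4 had every knockout under both wild types, as 12.2% of all genes tested did, and were within a fold of 1.5. They were picked by their P, so nothing is read from this order. Nothing is read from the count of 5 either, since the share of all genes past that P is not given here.

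**Figure D4:**
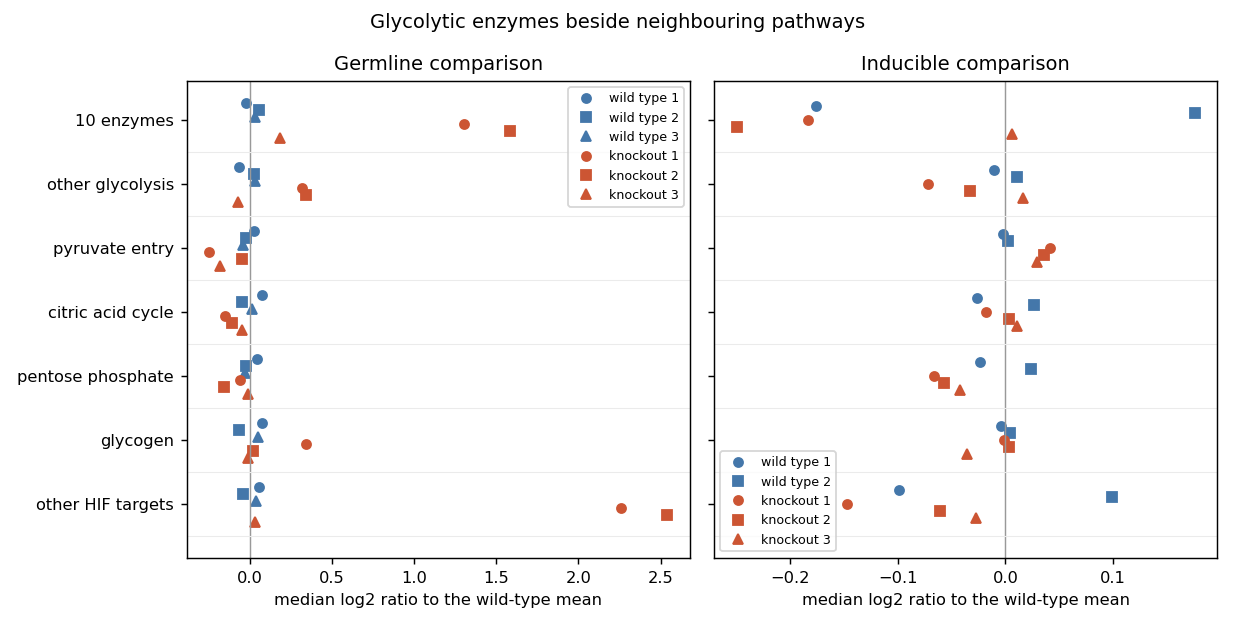
Median log2 ratio to the wild-type mean over the tested genes of each list (x axis) in each library, with circles, squares and triangles for replicates 1, 2 and 3, and separate x scales for the panels. The 10 enzymes and the other HIF targets stand to the right in germline knockouts 1 and 2 (1.30 and 1.58, and 2.26 and 2.54) and near the wild type in knockout 3 (0.19 and 0.03).

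The genes most like the members were sought among 3231 genes by correlation with the mean member level over the 6 germline libraries, which include both genotypes. P4ha1, a prolyl hydroxylase subunit, had r = 0.998 and P4ha2 had r = 0.996. Aldoart1 had r = 0.997, and its level was 8.58% to 10.4% of that of Aldoa in every library. It is a retrocopy of Aldoa, so reads may be shared. Gm21541, Ccl21c and Gm10591 had r = 0.995 and identical values in every library, so they count as 1. A correlation above 0.95 was reached by 94 genes. Over the 5 inducible libraries P4ha1 had r = 0.533 and P4ha2 r = -0.716, while Aldoart1 had 0.964.

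Reads of Eno1 are also listed under Eno1b, whose row at the same locus held at least 99.7% of the Eno1 value in every library, so the gene was counted once. A second Eno1b row, at the position of a processed copy on another chromosome, held 116% to 124% of the Eno1 value. How reads were divided between the gene and its copies cannot be told from these values. Gapdh, Tpi1, Pgk1 and Ldha belong to families with processed copies too, and their levels carry the same uncertainty.

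Markers of cell types also differed between these libraries. Germline knockouts 1 and 2, both high in the enzymes, had list medians on opposite sides of the wild-type mean for neuron and mesenchyme markers. On the log2 scale these were -1.06 and 0.92 for neuron (10 of 10 tested) and 1.71 and -4.15 for mesenchyme (10 of 10). Single markers did not all follow. Nefl (1.16 and 1.42 times the wild-type mean) and Nefm (1.28 and 1.62) were above it in both knockouts. Dcn (0.64 and 0.07) was below it in both. Summed mesenchyme markers were 5240 to 9238 normalized counts in the wild type against 22264, 705 and 11243 in knockouts 1 to 3. Summed erythroid markers (11 of 12 found) were 101380 to 162663 in the wild type against 156420, 36329 and 165954 in the knockouts, and summed microglia markers (9 of 9) 472 to 738 against 507, 23.5 and 569. Summed endothelium markers (10 of 10) were 1538 to 3045 in the wild type against 3495, 781 and 2488 in the knockouts. Knockout 2 was thus lowest for the blood, vessel, mesenchyme and microglia lists, and no marker of these lists was at or under 3 counts in every library. Radial glia markers (10 of 10), which define the labelled neural tissue, summed to 40166 to 44212 in the wild type against 40472 to 43373 in the knockouts. Vim and Nes make up a large part of that sum, and by library the list's median was -0.03, 0.56 and 0.04 on the log2 scale in knockouts 1 to 3. Of the list 1 gene was lower, Fabp7, a fatty acid binding protein, at 7955, 4447 and 4339 normalized counts in wild types 1 to 3 against 3021, 3230 and 2960 (log2 fold change -0.80, SE 0.24, adjusted p = 0.779, limma). Choroid plexus markers (7 of 7 found, 6 tested) summed to 2624 to 7315 in the wild type against 3220, 1741 and 3477 in the knockouts, with 2 lower, Ttr (log2 fold change -1.77, SE 0.64) and Kcne2 (-2.46, SE 0.88). In these genes knockouts 1 and 2 lay under every wild type and knockout 3 within their range.

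In the inducible comparison choroid plexus markers summed to 5275 and 5724 normalized counts in wild-type embryos against 5107, 4326 and 3093 in knockouts 1 to 3, with 2 lower, Clic6 (log2 fold change -0.61, SE 0.21) and Cldn1 (-0.64, SE 0.25), neither past the adjustment (adjusted p = 0.825, limma). Summed microglia markers were 847 and 827 against 907 to 1201, without overlap and with none past the thresholds. The sums of the radial glia, neuron, erythroid, endothelium and mesenchyme lists overlapped between these groups. The part of cell composition in the enzyme values was not tested.

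**Figure D5:**
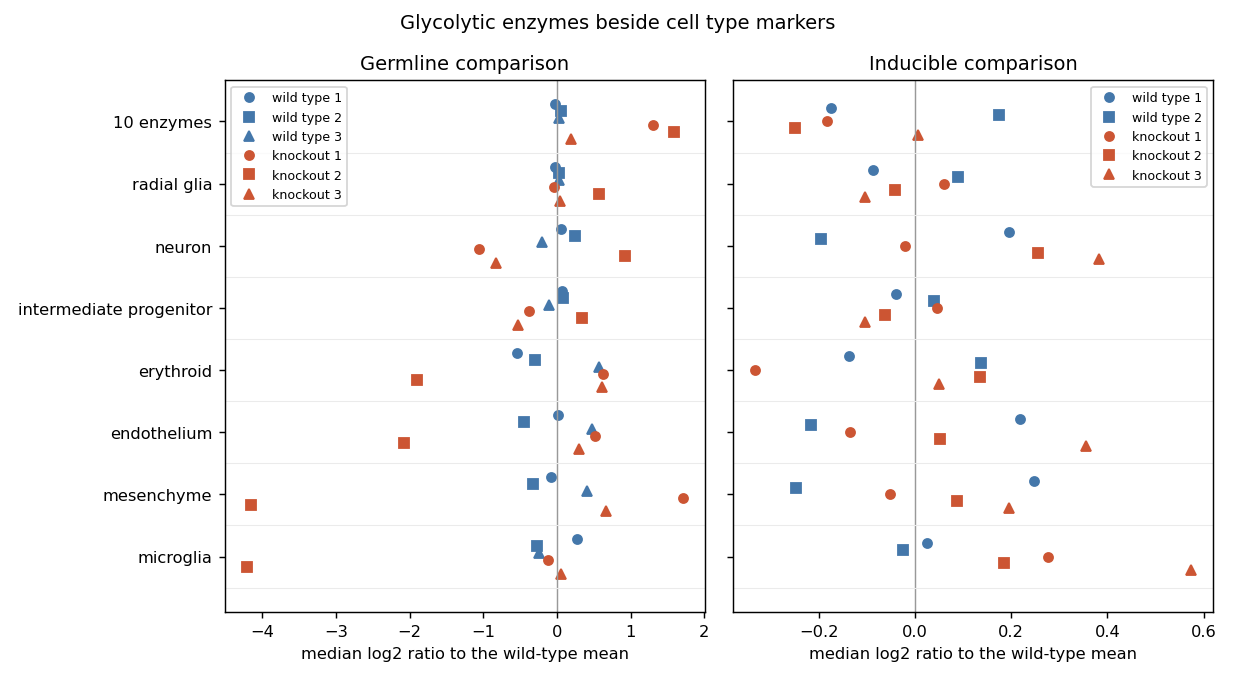
Median log2 ratio to the wild-type mean over the tested genes of each cell type marker list and of the 10 enzymes (x axis) in each library, with circles, squares and triangles for replicates 1, 2 and 3, and separate x scales for the panels. Germline knockouts 1 and 2 are both high for the enzymes (1.30 and 1.58). Their medians for the neuron and mesenchyme lists lie on opposite sides of the wild-type mean.

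Embryo sex also differed between libraries. The 4 Y-linked genes summed to 1714 and 4582 normalized counts in germline wild types 1 and 3 and 1376 in knockout 3, and to at most 9.83 in wild type 2 and knockouts 1 and 2. Among the libraries without Y-linked RNA, the 2 knockouts stood at a median of 2.49 times the 1 wild type, with all 10 enzymes above it, from 1.72 (Gapdh) to 6.83 (Hk2). Among those with it, the 1 knockout stood at a median of 1.15 times the mean of the 2 wild types, from 0.862 (Pfkp) to 1.30 (Ldha). The high and the low germline knockouts therefore also differ in the Y-linked genes, and library and sex cannot be told apart. In the inducible table both wild types lacked Y-linked RNA (sums of 1.96 and 4.24) and all 3 knockouts had it (2389 to 3209), so that genotype and sex cannot be told apart there, for X-linked Pgk1 included.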

How the data were processed

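Poly(A) RNA from E12.5 forebrain was sequenced on an Illumina HiSeq2000. Alignment by the authors used TopHat (version 1.2.0 in the submitters' processing notes) and mm9, with counting over RefSeq exons and TMM normalization by edgeR. The deposited values are a signal of normalized counts. They are fractional, so a count model could not be used and sequencing depth is unknown. The scaling by length that the study's methods name is absent. Each table was analysed alone as log2(normalized count + 1) for genes with a mean of at least 10. The fit used limma 3.58.1 in R 4.3.3 (trend, two-sided). It was tried on simulated data with noise set from the wild-type libraries. That trial does not cover the wider spread of the members among the germline knockouts. Fold changes on this scale understate low genes. Thresholds were a fold of 1.5 and an unadjusted P of 0.05, with Benjamini-Hochberg adjustment over all genes added. Embryos behind the replicates are not identified, so p-values may reflect technical spread. Members and lists were chosen with earlier results of these data known. Named genes were the members, other glycolysis genes past the thresholds plus Hk1, Pfkm, Aldoc, Pgam1, Eno2, Pkm and Ldhb, up to 3 genes past the thresholds per neighbouring list, the 6 genes most like the members among those with an SD of at least 0.5, Kif20a and Y-linked genes. Alternatives were other pseudocounts, no filter, quantile normalization, array weights, a replicate block and leaving out each library.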

Additional observations from a re-analysis of the deposited data

Results flagged for a closer look

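For 4 enzymes every germline knockout lay above its wild-type mean and every inducible knockout lay below its own. The inducible and germline log2 fold changes were -0.15 and 1.22 for Gpi1, -0.25 and 1.06 for Pfkl, -0.20 and 0.94 for Tpi1, and -0.075 and 0.49 for Gapdh. Germline knockout 3 lay within the wild-type range for Gpi1, Pfkl and Gapdh. Inducible knockout 3 lay above inducible wild type 1 for each of the 4. Without inducible wild type 2 the inducible values were -0.033, -0.12, -0.014 and 0.021 in the same order. Genotype and sex cannot be told apart in the inducible comparison. The difference between the comparisons was not tested, since the tables were normalized separately, and the germline values chose the members.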

How the results depend on the processing

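With single libraries left out, which leaves a lone inducible wild type that is assumed to vary like the knockouts, the number of germline members higher ran from 1 to 10 (8 with all libraries), their median log2 fold change from 0.71 to 1.42, and the inducible median from -0.32 to 0.030. Other glycolysis genes ran from 0 to 6 higher and 0 to 2 lower in the germline and 0 to 2 lower in the inducible comparison, and neighbouring genes from 2 to 24 higher and 0 to 2 lower in the germline and 1 to 2 higher in the inducible one. The 4 higher other glycolysis genes became 2 without the filter, with quantile normalization and with array weights. Replicate numbers gave no clear pairing of the libraries (correlations of deviations of -0.12, 0.31 and 0.25 in the germline and -0.35 and -0.05 in the inducible table). The study collected littermates, so a pairing may exist that this check cannot exclude. With 2 inducible wild types their deviations are mirror images of each other, which leaves the check uninformative there. With a replicate block, to which inducible knockout 3 adds nothing, 9 germline members were higher and 1 other glycolysis gene was lower in the inducible comparison. Of the alternatives for single genes, 369 kept their direction where called and their side of the threshold, 39 lost the call, 6 gained one and 0 reversed. Direction was compared only where a gene was called, and the sign of uncalled fold changes could depend on a library. For inducible Hk2 the log2 fold change was -0.20 without wild type 1 and 0.17 without wild type 2. For inducible Pfkl it stayed below 0, at -0.39 and -0.12. The cause of these changes was not tested. The 2 inducible wild types and the unknown depth limit what could be seen.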
